A study of Homo sapiens with 19 samples.

Results

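ERRα binding in SKBr3 cells treated with heregulin (HRG) was compared with binding in vehicle-treated cells, peak by peak. SKBr3 is a human breast cancer cell line with amplified ERBB2, the gene of the receptor HER2. After 24 h without serum, the cells were given 100 μM HRG for 90 min, the concentration that the labels give, or PBS as vehicle. In each condition, reads of 2 ERRα ChIP libraries were pooled by the authors into 1 peak list, called against 1 input library. The HRG list holds 37195 peaks and the vehicle list 32183 peaks, together 69378 of the 264623 peaks in the 8 lists of the series. An HRG peak without any vehicle peak over it was called gained, an HRG peak that shared at least 1 bp with a vehicle peak kept, and a vehicle peak without any HRG peak lost. The EGF list of the same cells played no part in these classes. With 1 pooled list per condition there is no spread between replicates, no treatment effect was tested and no P value is given. Shares carry 95% Wilson intervals, which cover counting error only. Gained and lost mean that a peak passed the P value cutoff of 1e-05 in one list and not in the other. The lists hold no tag counts, so the depth behind each list is unknown and a site that was not called may still be bound.

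ERRα, encoded by ESRRA, is an orphan nuclear receptor that controls genes of mitochondrial respiration, the TCA cycle and fatty acid oxidation. It binds as a monomer or dimer to the ERR response element (ERRE), an extended nuclear receptor recognition word. HRG is a ligand of HER3, which pairs with HER2 and signals through the PI3K/AKT and ERK/MAPK pathways. ERK signalling switches on immediate early genes such as FOS and JUN, whose products form the AP-1 transcription factor.

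Short words near the peak centres differed in frequency between the classes, although most sites of each class held none of them. They were searched on both strands within 100 bp of the centre. The ERRE was searched as TCAAGGTCA, and the AP-1 word as TGACTCA or TGAGTCA. All sequences are given 5′ to 3′ on the plus strand of GRCh37 (hg19), with these words in capitals. The first shows the reference point of the comparison, the ESRRA promoter at chr11:64072284-64072378, which was bound in both conditions. Its capitals mark 3 copies of TGACCTT, the reverse complement of the core word AAGGTCA, which start 23 bp apart and the last of which continues into a full ERRE. The ERRE lies outside the window around the centre of this wide HRG peak, so the word counts given later score the ESRRA site as having none.
ESRRA promoter, kept: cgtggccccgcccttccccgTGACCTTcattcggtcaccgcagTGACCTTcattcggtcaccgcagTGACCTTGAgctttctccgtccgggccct
The next 2 sites are gained sites that hold both words. They lie at chr2:217151697-217151743 in an intron of MARCHF4 and at chr16:8772643-8772696 in an intron of ABAT.
MARCHF4 intron, gained: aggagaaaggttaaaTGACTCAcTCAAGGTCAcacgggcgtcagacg
ABAT intron, gained: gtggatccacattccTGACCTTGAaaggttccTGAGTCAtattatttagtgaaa
The words are 1 bp apart at MARCHF4 and 8 bp apart at ABAT. Lost sites with an ERRE are shown by chr1:221740982-221741050, an intergenic site 174358 bp from the nearest start, that of DUSP10. A second lies at chr9:130074114-130074176 in an intron of GARNL3. Kept sites with an ERRE are shown by chr10:75758261-75758329 at the promoter of VCL and chr10:81107701-81107769 at the promoter of PPIF.
DUSP10 region, lost: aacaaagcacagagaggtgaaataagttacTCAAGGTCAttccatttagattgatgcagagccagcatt
GARNL3 intron, lost: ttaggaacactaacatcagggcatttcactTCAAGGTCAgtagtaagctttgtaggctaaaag
VCL promoter, kept: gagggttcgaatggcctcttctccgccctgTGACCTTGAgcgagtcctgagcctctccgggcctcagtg
PPIF promoter, kept: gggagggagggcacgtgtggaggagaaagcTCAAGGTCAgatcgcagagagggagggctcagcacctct

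Most of the sites of high score were bound in both conditions, and the HRG list, which is the longer, held more unshared peaks than the vehicle list. Of the HRG peaks, 19047 were gained (51.2%, 50.7 to 51.7) and 18148 were kept. Of the vehicle peaks, 13832 were lost (43.0%, 42.4 to 43.5) and 18351 overlapped an HRG peak. Merging overlapping peaks gave 50831 sites, of which 17952 (35.3%) were bound in both conditions. The number of gained sites was 1.38 times that of lost sites. With the HRG list shortened to the length of the vehicle list there were 15029 gained and 14801 lost sites, a ratio of 1.02. In the full lists the ratio was 1.57 among sites with a score of at least 100, where the score is the authors' P value of the peak on MACS's log scale and the cutoff corresponds to 50. The peaks carry MACS names, and the lowest score is 50, but a comment line in the SKBr3 lists names another program, FindPeaks, so this reading of the score rests on the study's methods and the peak names. At the top the scores are capped: 1015 HRG and 827 vehicle peaks scored 3100 or more, most of them exactly 3100, and such scores do not rank binding.

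Gained and lost sites had similar median scores, below that of kept sites, but the strongest peaks were more often gained than lost. The median score was 94.7 in gained, 86.7 in lost and 294 in kept sites. Because scores follow the depth of a library, peaks were also ranked within their own list. The median percentile was 33.4 for gained sites in the HRG list, 30.5 for lost sites in the vehicle list and 70.1 for kept sites in the HRG list. In the weakest 10% of each list, 80.5% of the HRG peaks were gained and 74.5% of the vehicle peaks were lost. In the strongest 10% these shares were 5.51% (4.82 to 6.29) and 0.683% (0.452 to 1.03). Strong gained sites thus numbered 205 in that range, and strong lost sites 22.

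**Figure D1:**
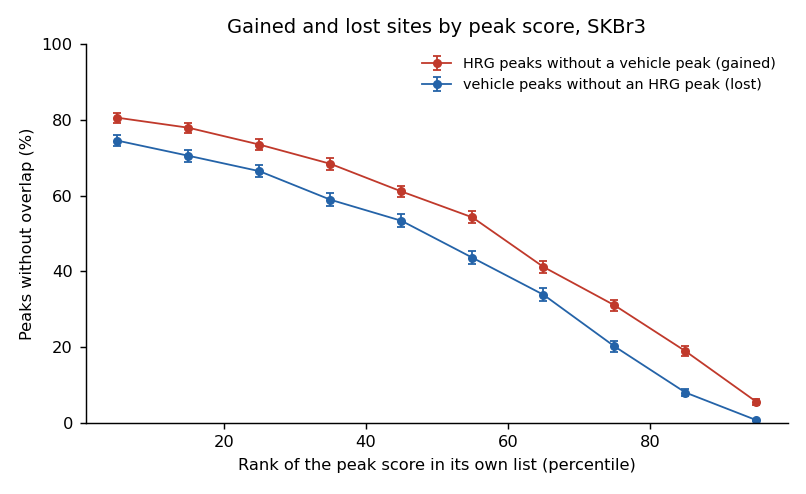
Percentage of HRG peaks without a vehicle peak (red) and of vehicle peaks without an HRG peak (blue) in steps of 10 percentiles of the peak scores of the list, with 95% Wilson intervals. Both curves fall as the score rises, from 80.5% to 5.51% for HRG peaks and from 74.5% to 0.683% for vehicle peaks.

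Few sites owed their class to the edge of a peak. As few as 8 gained and 3 lost sites lay within 10 bp of a peak of the other list, and 6.06% of gained and 4.27% of lost sites lay within 1 kb of one. The median gap was 18151 bp for gained and 24151 bp for lost sites. Of the kept HRG peaks, 93.0% overlapped a vehicle peak over at least 50% of both. The median offset between the centres of a kept pair was 80 bp, and the median HRG peak was 1.01 times as wide as its vehicle partner. Across the kept pairs the score percentiles had a Spearman correlation of 0.574, a description over 18148 pairs that share their cells, antibody and position.

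The 11 gained sites at the score cap lay away from promoters, although the promoter share was 12.3% in the lowest and 17.0% in the highest 25% of gained scores. The 11 had CRABP2, HYDIN, MCFD2, ETS2, H2AC25, STARD8, RABL2A, ASB7, RHOD, HSPG2 and PARVB as nearest genes. None of them lay within 1 kb of a start, and their distances to the nearest start ran from 4869 bp (H2AC25) to 108047 bp (ASB7). The widest, at chr1:156658160-156665807, had a score of 3191 and lay 13391 bp from a start of CRABP2, which encodes a retinoic acid carrier. The site near ETS2, a transcription factor gene downstream of growth factor signalling, reached 3100 at chr21:40284487-40287511 and lay 493 bp from the nearest vehicle peak. The sites near RHOD and HSPG2, a small GTPase gene and the gene of the basement membrane proteoglycan perlecan, held the AP-1 word. None of the 11 held an ERRE. Over all gained sites these words were found at 11.7% (AP-1) and 3.88% (ERRE), and 11 sites are too few to tell from these shares.

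Lost sites of comparable strength were few. The 10 highest had TNFAIP1, ENSG00000283321, TSPAN14, EYA2, ZMYND8, KCNH8, SCN10A, MYRFL, DGLUCY and PON3 as nearest genes. Of these, 2 had a score of 3100, those near TNFAIP1 and ENSG00000283321. The others ran from 2528 in an intron of TSPAN14 to 1209 in an intron of PON3. The 10 highest kept HRG peaks had vehicle partners of varied score that all stood high in the vehicle list. The highest, near BRD7, scored 3225 on HRG and 614 on vehicle. That vehicle score was at percentile 84.6 of its list, the lowest of the 10. NDST1, GK5 and KCNAB2 scored 3219 to 3224 on HRG and stood at the cap of 3100 on vehicle. The remaining 6 (IQGAP2, TRIOBP, PTPRJ, KANK4, NCR3LG1 and FOLH1) scored 3210 to 3218 on HRG and 1049 to 3100 on vehicle.

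Gained sites resembled kept sites in their location and lost sites did not. A centre lay within 1 kb of a protein-coding transcription start, here called a promoter, at 15.4% of gained (14.9 to 15.9), 17.7% of kept (17.1 to 18.2) and 3.94% of lost sites (3.63 to 4.28). In numbers, 2936 promoters were gained and 545 lost. Intergenic sites made up 42.1% of gained, 38.4% of kept and 49.4% of lost sites, and introns 39.9%, 41.3% and 44.1%. The median distance to a start was 17300 bp for gained, 19152 bp for kept and 65714 bp for lost sites. A start lay within 20 kb of 53.2% of gained, 50.8% of kept and 26.1% of lost sites.

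**Figure D2:**
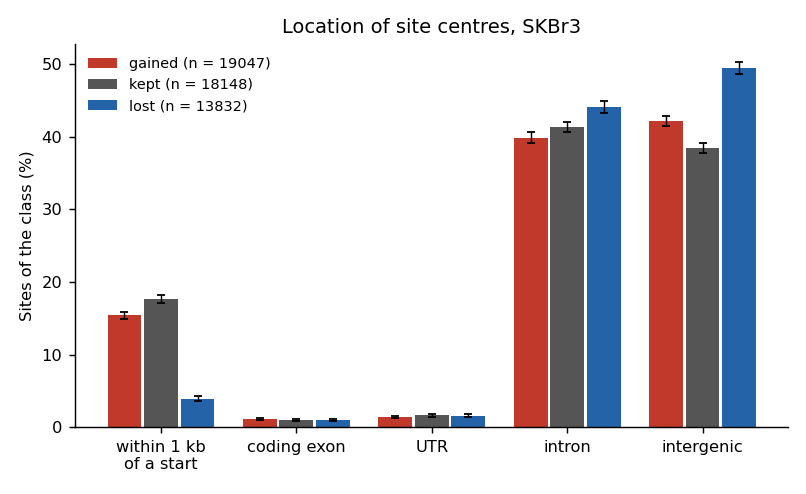
Percentage of gained, kept and lost sites whose centre lies within 1 kb of a start, in a coding exon, a UTR, an intron or between genes, with 95% Wilson intervals as bars on each column. The promoter columns stand at 15.4% for gained, 17.7% for kept and 3.94% for lost sites.

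The ESRRA locus showed a kept promoter among gained neighbours. At the promoter (chr11:64070140-64074779 on HRG), the score was at the cap of 3100 in both conditions, which does not show equal binding. A second kept site in the gene, at chr11:64077792-64079333, scored 468 on HRG and 621 on vehicle. A kept site at the promoter of CATSPERZ scored 495 on HRG and 117 on vehicle. The 4 sites gained within 20 kb of an ESRRA start lay on both sides of it. They included the promoter of PRDX5 (score 1073), which encodes a mitochondrial peroxiredoxin and is named here after its value was seen, and the promoter of GPR137 (290). The strongest, at chr11:64098466-64100233, scored 2849, lay 17594 bp from an ESRRA start and held the AP-1 word. No site was lost there.

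Other genes examined by name fell into different classes. TFF1, which encodes a secreted trefoil peptide, had 2 gained sites and no kept site. The stronger lay 586 bp from its start at chr21:43786450-43788009 with a score of 247. LAMA4, a laminin chain gene, had 1 gained site in an intron, 12346 bp from a start, with a score of 333. GSR, the gene of glutathione reductase, had 3 kept sites and no gained or lost site, the highest with a score of 694. SOD2, the mitochondrial superoxide dismutase gene, had both classes at its annotated starts. A kept site 207 bp from one start scored 1520, and a gained site 119 bp from another start scored 290. GPX1 had 1 kept site, 18627 bp from its start and at the promoter of another gene. SOD3 had no peak within 20 kb in either list.

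To describe genes, a gene was assigned to a class when a site centre lay within 20 kb of one of its starts. Of the 19794 protein-coding genes, 43.9% had a gained site, 42.8% a kept site and 15.8% a lost site. A gained site and no vehicle peak was found at 17.2% of genes (3413 genes), and a lost site and no HRG peak at 4.79% (948 genes). No peak of either list was near 32.2% of genes. Most gained sites in range of a gene, 68.4%, had a gene that already carried a vehicle peak. The gene lists below were chosen with earlier results of these data known. Their counts are therefore descriptions, read against these shares of all genes and without a test.

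Genes of mitochondrial energy metabolism were bound in both conditions. Of the 77 genes of oxidative phosphorylation subunits, 74 (96.1%) had a kept site, against 42.8% of all genes. NDUFB10, a complex I subunit gene, was the single member with a gained site and no vehicle peak (score 157), and no member had a lost site without an HRG peak. The kept sites at the promoters of ATP5F1B, ATP5F1C and ATP5MC3, all subunits of ATP synthase, scored 3100. Gained sites were near 29 of the 77 (37.7%, against 43.9% of all genes), and lost sites near 9 (11.7%, against 15.8%). Within 10 kb, gained sites were near 11 of the 77, against 33.2% of all genes. The TCA cycle and pyruvate list had kept sites at 22 of 25 genes (88%, against 42.8% of all genes). Scores were 3100 at the promoters of CS and DLAT, which encode citrate synthase and a subunit of pyruvate dehydrogenase. Gained sites were near 11 of the 25 (44%, against 43.9% of all genes). Lost sites were near 6 (24%, against 15.8% of all genes), among them PDHB (218) and FH (162). In that list PDK1, the gene of a kinase that inhibits pyruvate dehydrogenase, carried a lost site 290 bp from its start and no HRG peak. Its score of 51.9 lay just above the cutoff of 50.

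Most genes of fatty acid oxidation and glycolysis also had kept sites. Kept sites were near 14 of 20 fatty acid oxidation genes (70%, against 42.8% of all genes), among them CPT1A (3100), the carnitine palmitoyltransferase that admits fatty acids to mitochondria, and ACADM (1532). Gained sites were near 9 of the 20 (45%), close to the 43.9% of all genes. A gained site and no vehicle peak was found at 3 of the 20 (15%, against 17.2% of all genes), among them ETFB (1962) and ETFA (359). ETFA and ETFB encode both chains of the flavoprotein that passes electrons from acyl-CoA dehydrogenases to the respiratory chain, and the ETFB site held an ERRE. Kept sites were near 18 of 20 glycolysis genes (90%) and gained sites near 13 (65%), both above the shares of all genes. SLC16A1, a lactate transporter gene, and PFKL, a phosphofructokinase gene, had a gained site and no vehicle peak, with scores of 305 and 94.6, a count (2 of 20, 10%) below the 17.2% of all genes. PKM, the pyruvate kinase gene, gained a site 38 bp from a start with a score of 382 and the AP-1 word.

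Glutathione metabolism had kept sites at 24 of 34 genes and gained sites at 19 (55.9%, against 43.9% of all genes). Within 10 kb, gained sites were near 12 of the 34, close to the 33.2% of all genes. Of these genes, 5 (14.7%, against 17.2% of all genes) had a gained site and no vehicle peak (CHAC1, GGT7, GSS, GSTO1 and GSTO2), and none had a lost site without an HRG peak. The GGT7 site scored 1584. GSTO1 and GSTO2, both glutathione S-transferase omega genes, shared a site that scored 194 at the start of GSTO1. Among the 12 genes of ERR family members and coregulators, 6 had a kept and 5 a gained site (50% and 41.7%), near the shares of all genes, 4 had a lost site (33.3%, against 15.8% of all genes), and 5 had no peak. PPARGC1B, which encodes the ERRα coactivator PGC-1β, had sites of all classes, with scores of 530 kept, 826 gained and 735 lost, at separate positions of the gene. NCOR1, a corepressor gene, had a gained site at its promoter and no vehicle peak (128).

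Genes of the AP-1 family and other immediate early genes often had gained sites. Of the 15 AP-1 subunit genes, 13 (86.7%) had a gained site, against 43.9% of all genes. A kept site was near 10 (66.7%, against 42.8% of all genes) and a lost site near 1 (6.67%, against 15.8%). JUN, FOSB, JUND and BATF2, 4 of the 15 (26.7%, against 17.2% of all genes), had a gained site and no vehicle peak. The JUN site, at chr1:59248163-59252076 and 401 bp from the start, scored 461, and those of FOSB and JUND scored 791 and 670 at 12901 and 19795 bp from a start. FOS and FOSL2 had kept sites with scores of 3100 and 2521, the FOSL2 site at its promoter. Within 10 kb, 9 of the 15 had a gained site, against 33.2% of all genes. Of 22 other immediate early genes, 16 (72.7%) had a gained site, among them IER3 (676), IER2 (631), KLF6 (350) and ID1 (322). Lost sites were near 6 of the 22 (27.3%), against 15.8% of all genes, among them NR4A2 (291), NR4A3 (158), KLF4 (90.3) and KLF6 itself (111). Within 10 kb this excess was gone, with a lost site near 2 of the 22 against 10.7% of all genes. IER2, IER5, KLF10, SRF and ZFP36, 5 of the 22 (22.7%, against 17.2% of all genes), had a gained site and no vehicle peak. EGR1 and MYC had no peak of either list within 20 kb.

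Feedback inhibitors and the PI3K, AKT and mTOR list had gained shares above that of all genes. Feedback inhibitors had gained sites at 13 of 20 genes (65%, against 43.9% of all genes). Of the 20, 6 (30%, against 17.2% of all genes) had a gained site and no vehicle peak (DUSP2, DUSP7, SOCS3, SPRED1, SPRED3 and SPRY2). SPRY2, a Sprouty inhibitor of receptor tyrosine kinase signalling, gained a site 445 bp from its start (239). The DUSP7 site (376) held an ERRE. Lost sites were near 5 of the 20 (25%), also above the share of all genes: SPRED2 (457), ERRFI1 (352), SPRY1 (109), DUSP6 (66.0) and DUSP10 (51.1), the last without an HRG peak. In the PI3K, AKT and mTOR list, 16 of 28 genes (57.1%) had a gained site. Of the 28, 6 (21.4%, against 17.2% of all genes) had a gained site and no vehicle peak, among them AKT2, EIF4EBP1, EIF4EBP2, PIK3R1 and SGK1. EIF4EBP2, a translation repressor gene controlled by mTOR, gained a promoter site of score 518, and PIK3R1, which encodes the p85α subunit of PI3K, an intronic site of score 305 with the AP-1 word. PIK3CA, the gene of the catalytic subunit p110α, had a lost promoter site and no HRG peak (86.8).

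For so short a list, the ERBB receptors, ligands and adaptors had gained and kept shares near those of all genes, and a lost share above it. Of its 22 genes, 8 (36.4%, against 43.9% of all genes) had a gained site. A kept site was near 11 (50%, against 42.8%) and a lost site near 6 (27.3%, against 15.8%). ERBB3, which encodes the HRG receptor HER3, had a kept promoter site of score 3100 and a gained site of score 200 in the gene. CBL, GRB2 and NRG4, which encode an E3 ligase, an adaptor and a ligand, had a gained site and no vehicle peak, with scores of 240, 141 and 210. These are 3 of the 22 (13.6%, against 17.2% of all genes). ERBB4 had a lost site and no HRG peak (89.9), and the intronic site lost at EGFR scored 155. ERBB2 and NRG1 had no peak of either list within 20 kb.

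Integrin and G1-S cell cycle genes also had gained shares above that of all genes. Gained sites were near 16 of 26 integrin genes (61.5%). Of the 26, 4 (15.4%, against 17.2% of all genes) had a gained site and no vehicle peak, the leukocyte integrin genes ITGAD, ITGAL, ITGAM and ITGAX, which share 1 chromosome. Their scores ran from 118 (ITGAM) to 308 (ITGAX). Of 28 G1-S regulators, 17 (60.7%) had a gained site. A gained site and no vehicle peak was found at 8 of the 28 (28.6%, against 17.2% of all genes), which were CDK2, CDK4, CDKN2A, CDKN2B, CDKN2D, E2F1, E2F6 and TFDP1. The CDK4 site lay 76 bp from a start (149) and the E2F1 site scored 560. CCNE1 and CDKN1A, the genes of cyclin E1 and p21, had kept sites of 3100 and 2640. Of 20 luminal breast transcription factor genes, 9 (45%) had a gained site and 6 (30%) a lost site, the latter against 15.8% of all genes. GATA3 and TBX3 (10% of the 20, against 17.2% of all genes) had a gained promoter site and no vehicle peak, with scores of 154 and 147. MYB and PGR (10%, against 4.79% of all genes) had a lost site and no HRG peak, with scores of 51.5 and 80.8.

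Of 3 housekeeping lists, 1 had a gained share well above the 43.9% of all genes. Cytosolic ribosomal protein genes had gained sites at 53 of 86 (61.6%), mitochondrial ribosomal protein genes at 35 of 77 (45.5%) and proteasome subunit genes at 12 of 31 (38.7%). Kept sites were near 58 of 86 (67.4%), 58 of 77 (75.3%) and 16 of 31 (51.6%) genes of these lists, against 42.8% of all genes. A lost site and no HRG peak was found at 4 of the 86 cytosolic ribosomal protein genes (4.65%, against 4.79% of all genes), the promoters of RPS13, RPL32, RPL37A and RPL22L1, with scores of 53.9 to 106. Of 390 olfactory receptor genes, which are silent in most tissues, 87.4% had no peak of either list, 23 (5.90%) had a gained and 19 (4.87%) a lost site. Lists with gained counts above the share of all genes thus included the cytosolic ribosomal proteins as well as some signalling lists.

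The words in the peaks differed between the classes. The ERRE was found at 3.88% of gained (3.61 to 4.16), 7.34% of kept (6.97 to 7.73) and 6.17% of lost sites (5.79 to 6.59). In flanking windows of the same width 2 kb away it was found at 0.312%, 0.399% and 0.286%, so in each class the centres of the ERRα peaks were richer in the ERRE than their surroundings. The AP-1 word was found at 11.7% of gained (11.3 to 12.2), 7.71% of kept (7.33 to 8.11) and 4.71% of lost sites (4.37 to 5.08), with 3.16%, 3.26% and 3.01% in the flanks. Both words together occurred at 93 gained sites. In the gained class the AP-1 share was higher in stronger sites, at 10.2% in the lowest and 14.3% in the highest 25% of scores, and the ERRE share was 4.26% and 3.42%. In the kept class the ERRE share was 9.28% in the lowest and 6.17% in the highest 25% of HRG scores, but 8.26% and 8.37% when the same sites were taken by their vehicle peaks and scores.

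The AP-1 word was centred on gained and kept sites and much less on lost sites. Away from promoters, 3.8% and 3.94% of gained sites held it in the 2 bins of 50 bp next to the centre, against 2.55% and 2.11% of kept and 1.11% and 1.35% of lost sites. The ERRE was centred in all classes, with 1.4% and 1.47% in gained, 2.62% and 2.86% in kept, and 1.92% and 2.26% in lost sites.

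**Figure D3:**
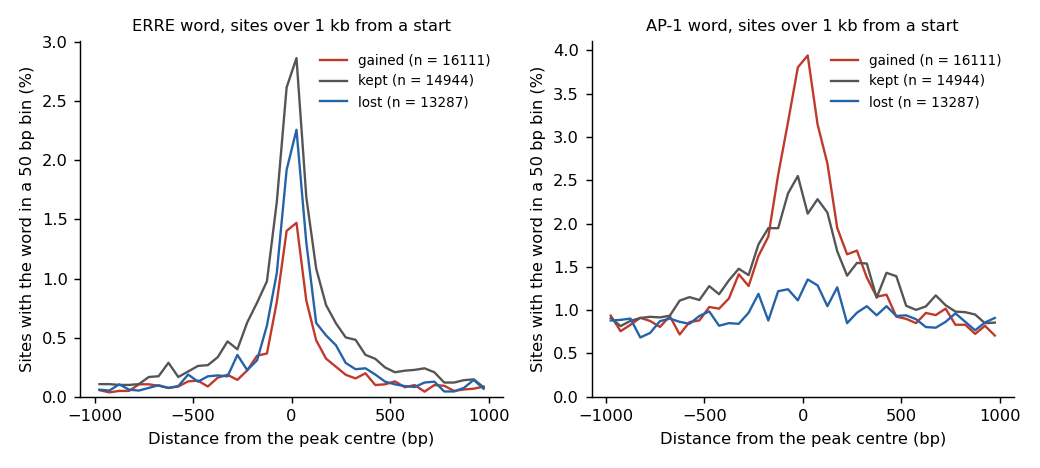
Percentage of gained, kept and lost sites more than 1 kb from a start with the ERRE word (left) or the AP-1 word (right) in bins of 50 bp, against distance from the peak centre. The ERRE peaks at the centre in each class, highest in kept sites (2.86%), whereas the AP-1 word reaches 3.94% at gained and 1.35% at lost sites next to the centre.

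Promoter sites carried other words. At gained promoters the ERRE was found at 1.12% and the AP-1 word at 4.77%. The SP/KLF word GGGCGGGG was found at 13.9% of gained, 9.61% of kept and 3.85% of lost promoters, and the ETS word CCGGAAGT at 3.37%, 4.37% and 2.20%. Gained promoters with an ERRE numbered 33. The strongest, near AP1B1, which encodes a subunit of a clathrin adaptor, scored 1112 and is shown at chr22:29784820-29784878 with the ERRE in capitals.
AP1B1 promoter, gained: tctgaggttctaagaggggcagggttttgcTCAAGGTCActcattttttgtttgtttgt
The FOXA word TGTTTAC, by contrast, was found at 2.95% of gained, 3.98% of kept and 5.55% of lost sites, with 2.29%, 2.66% and 3.44% in the flanks.

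Base composition differed with the classes. The central window held 51.0% ± 10.4 GC in gained (mean ± SD over sites), 49.9% ± 9.81 in kept and 41.1% ± 7.13 in lost sites. The order was the same at promoters (61.7%, 59.8% and 48.5%) and away from them (49.0%, 47.8% and 40.8%). Among vehicle peaks, 74.1% of those below 35% GC were lost and 3.10% of those at or above 65%. Among HRG peaks the gained share stayed between 41.8% and 57.2% over the same ranges. The word counts were therefore also taken within ranges of GC, away from promoters. The AP-1 word was more frequent in gained than in lost sites in each of the 5 ranges, at 18.2% (16.7 to 19.9) against 4.77% (4.12 to 5.51) between 40% and 45% GC and 7.61% against 4.43% below 40%. The ERRE was less frequent in gained than in lost sites in 4 of the 5 ranges, at 5.21% against 7.35% between 40% and 45%. The intervals overlapped between 45% and 50% GC and between 50% and 55%. At or above 55% GC the ERRE was at 3.18% (2.70 to 3.74) of gained and 1.66% (0.709 to 3.82) of lost sites. The lost value there rests on 5 of 302 sites, and these intervals overlap too. These counts are descriptions, and the part of GC in the differences between the classes was not tested.

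**Figure D4:**
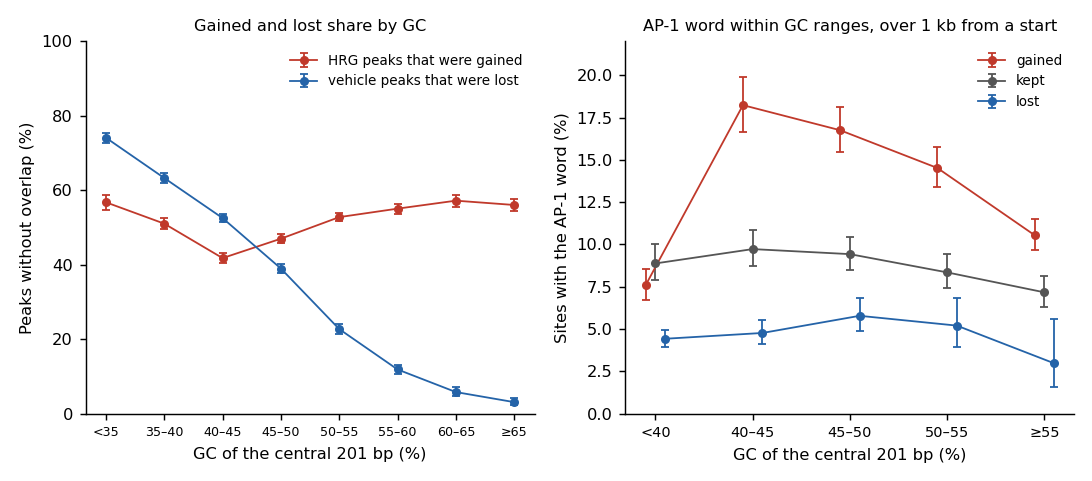
Left, percentage of HRG peaks that were gained and of vehicle peaks that were lost, by GC content within 100 bp of the centre. Right, percentage of gained, kept and lost sites more than 1 kb from a start with the AP-1 word, by GC content, all with 95% Wilson intervals. The lost share falls from 74.1% to 3.10% with rising GC, and the gained points lie above the lost points in each GC range.

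Chromosomes lost and gained unequal shares of their sites. On chromosome 7, 79.1% of the vehicle peaks were lost and 70.5% of the HRG peaks gained, leaving 723 kept HRG peaks. The 2766 sites lost there compare with 13832 lost sites in all. On chromosome 19, 9.10% of vehicle peaks were lost and 68.0% of HRG peaks gained, with 1261 gained and 61 lost sites. Chromosome 22 had 517 gained and 59 lost sites, and chromosome 16 had 891 and 182. Lost sites outnumbered gained sites on chromosome 3 (1474 against 1065) and on chromosomes 4, 7 and 13, and on Y, where there were 6 lost and 3 gained sites. The lost sites of chromosome 7 had a mean GC of 38.2%.

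**Figure D5:**
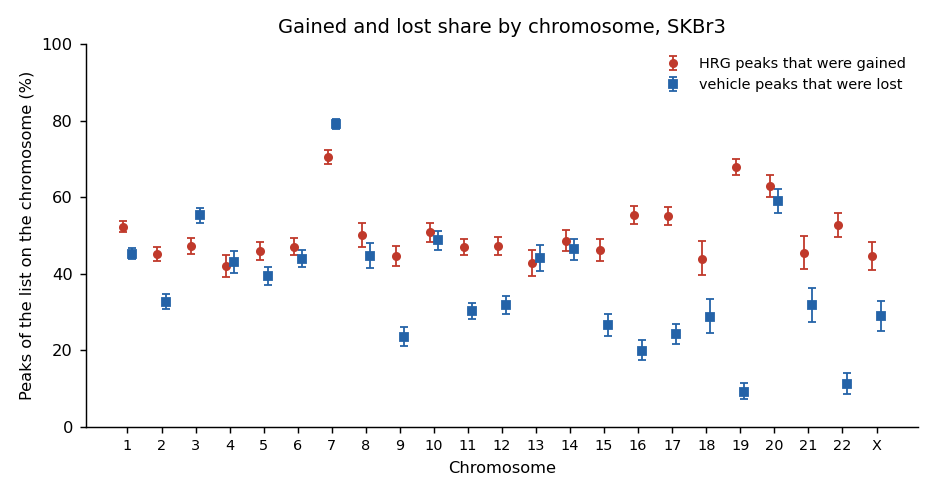
For each chromosome, the percentage of HRG peaks that were gained (circles) and of vehicle peaks that were lost (squares), with 95% Wilson intervals. Chromosome 7 is high in both, at 70.5% and 79.1%, and chromosome 19 has 68.0% gained and 9.10% lost.

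Lost sites were concentrated in regions. In windows of 1 Mb, 142 windows held at least 20 lost sites, 62 of them on chromosome 7, and contained 36.2% of all lost sites. The 203 windows with at least 20 gained sites contained 30.6% of gained sites, and 2 windows met both criteria. Lost sites in the dense windows held the ERRE at 2.26% (1.88 to 2.70), the other lost sites at 8.4% (7.84 to 9.0). Their GC content was 38.3% ± 6.60 and 42.6% ± 6.94, and 5.59% and 17.8% had a peak in untreated parental pSKBr3 cells. The median score percentile was 30.5 in both. For comparison, 8.37% (7.98 to 8.78) of the kept vehicle peaks held the ERRE, close to the dispersed lost sites and above the clustered ones. Gained sites in dense windows were richer in GC (55.1% ± 8.98 against 49.1% ± 10.4) and poorer in the AP-1 word (8.74% against 13.0%). They were also poorer in the ERRE, at 2.83% (2.44 to 3.29) against 4.34% (4.01 to 4.70).

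The densest lost window, at 7 to 8 Mb of chromosome 3, held 137 lost, 10 gained and 1 kept site, and no ERRE among the lost sites. It overlaps GRM7, the gene of a neuronal glutamate receptor, which had 139 lost sites against 5 gained and 1 kept. The adjoining window, at 6 to 7 Mb, held 115 lost sites, so lost sites also lay outside the gene. LRMDA followed with 82 lost sites, HDAC9 with 69, MACROD2 with 65 and DGKB with 55. These genes are from 830 kb (DGKB) to 2058 kb (MACROD2) long. The densest gained window, at 73 to 74 Mb of chromosome 7, held 76 gained, 8 kept and no lost sites, and likewise no ERRE among the gained sites. It includes CLDN3 and CLDN4, which encode claudins of epithelial tight junctions. The genes with most gained sites were GSE1 (20), CTNNA3 (19), RBFOX3 (19), CAMTA1 (17) and CUX1 (17). GSE1 also had 25 kept sites, whereas CTNNA3 had 22 lost sites beside its 19 gained ones.

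Gained and lost sites were found in other cells of the series to different degrees. These lists come from other cultures and played no part in the classes. In LRSKBr3 cells, a lapatinib-resistant SKBr3 derivative kept in the drug, 42.9% of gained, 92.0% of kept and 35.3% of lost sites had a peak. In pSKBr3 cells the shares were 19.7%, 72.9% and 13.4%. The higher shares of gained than lost sites did not hold away from promoters and without chromosome 7, where LRSKBr3 peaks were found at 38.9% (38.1 to 39.7) of gained and 39.5% (38.5 to 40.4) of lost sites, and pSKBr3 peaks at 14.5% and 14.3%. Gained promoters were found there more often (70.6% in LRSKBr3 and 47.2% in pSKBr3) than gained sites with the AP-1 word (28.2% and 8.47%), and the same held for lost promoters (69.0% and 36.3%) against lost sites with the AP-1 word (32.4% and 9.51%). In BT-474, another ERBB2-amplified breast cancer line, gained sites with the AP-1 word had a peak at 25% on HRG and 16.4% on vehicle, and gained promoters at 12.7% and 16.5%. The BT-474 HRG list is the larger, with 41271 against 32259 peaks, and sites of the other classes with the AP-1 word also overlapped it more often (kept 67.5% against 56.6%, lost 38.2% against 28.2%). For lost sites the shares were 31.4% on HRG and 27.7% on vehicle.

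The same contrast in BT-474, where each list rests on 1 ChIP library and the vehicle input serves both, had the same order for the AP-1 word and the opposite order for location, GC and the ERRE. The AP-1 word was found at 8.57% (8.13 to 9.03) of the 14969 sites gained on HRG in BT-474 and at 3.18% (2.76 to 3.65) of the 6110 lost. The ERRE was found at 4.63% (4.30 to 4.98) of gained and 3.85% (3.39 to 4.36) of lost sites, intervals that overlap. Promoters made up 2.99% of gained and 14.7% of lost sites in BT-474, the opposite order to SKBr3. Mean GC was 37.3% ± 7.79 in gained and 43.6% ± 10.5 in lost sites, again opposite to SKBr3.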

How the data were processed

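ERRα ChIP-seq of SKBr3 cells was analysed from the 2 peak lists of HRG and vehicle, with the pSKBr3, LRSKBr3 and BT-474 lists for comparison. The authors aligned reads to hg19 with BWA 0.5.9 and used SAMtools 0.1.18, per the submitters' processing notes, and called peaks against input by MACS (cutoff P of 1e-05, bandwidth 300). The deposited score of each peak is its P value on MACS's log scale, with 50 at the cutoff. A comment line in the SKBr3 lists names FindPeaks; MACS was taken from the study's methods and the peak names. Read depth is unknown.

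Here peaks were overlapped (at least 1 bp), located from their centres against GENCODE 44 protein-coding starts on GRCh37, and searched for words within 100 bp of the centre on both strands, with flanks 2 kb away. The members and lists were chosen with earlier results of these data known. Sites and genes to name were ESRRA, TFF1, LAMA4, GSR, GPX1, SOD2 and SOD3, the 10 highest sites per class (ties by width; a gained site tied with the tenth was added), up to 4 genes per list and class, the 5 genes with most gained or lost sites, and the 10 highest sites with both words (gained) or an ERRE (lost). Other genes named complete a short count or were chosen after their values were seen. A few genes and sites that this rule picks are not reported here. Whether the 2 ChIP libraries of a list came from separate cultures is not stated in the labels. Overlap, word search and gene assignment were tested on simulated data. Alternatives varied the score threshold, the overlap rule, list size, chromosome 7, windows and words. The leaving out of dense windows and the list counts at 10 kb or a score of 100 were added after seeing the data. Tools were samtools 1.23.1 and, in Python 3.11.15, pysam 0.24.0, pandas 2.3.3, scipy 1.17.1, numpy 2.4.6 and, for figures, matplotlib 3.10.9.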

Additional observations from a re-analysis of the deposited data

Results flagged for a closer look

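For GC, promoters and the ERRE, gained and lost sites differed in opposite directions in the 2 cell lines, whereas the AP-1 word was more frequent in gained than in lost sites in both. Mean GC of gained minus lost sites was 9.89 percentage points in SKBr3 and -6.33 in BT-474. The share of promoters in gained minus lost sites was 11.5 percentage points in SKBr3 and -11.7 in BT-474. The share with the ERRE in gained minus lost sites was -2.29 percentage points in SKBr3 and 0.783 in BT-474, where the intervals of the shares overlap. With 1 list per condition in each line, the difference between the lines was not tested.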

How the results depend on the processing

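Of 79 recomputed values, 38 stayed within 1.5 times the count or within the interval of the value given, and 41 moved. A change of direction was looked for only in the ratio of gained to lost sites, which stayed above 1. Depth is unknown and limits what the lists can show: sites near the cutoff may be bound in both conditions. A score of at least 100 in both lists gave 11406 gained and 7601 lost sites and a ratio of gained to lost of 1.5. A score of at least 100 for the site gave 8923 gained and 5669 lost sites, a ratio of 1.57, 2020 and 461 genes with a gained or lost site only, 18.7% of lost sites on chromosome 7, promoters at 17.6% of gained and 19.1% of kept sites, GC of 52.4% and 50.6% in these, the AP-1 word at 13.0% of gained, and the ERRE at 3.40% of gained and 6.89% of kept sites. The ratio was 1.33 with an overlap of at least 50% of both peaks, 1.57 without chromosome 7, and 1.02 with lists of equal size, a setting that brings it near 1 by construction. Starts within 2.5 kb were found at 21.5% of gained, 23.1% of kept and 7.01% of lost sites. GC over the whole peak was 49.4%, 48.0% and 39.9%. More than 1 kb from a start, the AP-1 word was at 13.0% of gained and 8.73% of kept sites, and the ERRE at 4.38% and 8.43%. Within 250 bp of the centre the AP-1 word was at 20.9%, 16.3% and 10.6% of gained, kept and lost sites, and AAGGTCA in place of the ERRE at 17.6%, 26.2% and 19.6%. Without the 1 Mb windows that hold at least 20 lost sites, 8821 lost sites remained, the ratio was 2.16, and among lost sites 5.32% were promoters, 8.4% held the ERRE, 5.75% lay on chromosome 7 and GC was 42.6%, an alternative chosen after seeing the data. This ERRE share lay above the 7.34% of kept HRG peaks, whereas the 6.17% of all lost sites lay below it. Of 108 counts of genes by list and class, 27 moved by more than 1.5 times within 10 kb or at a score of at least 100. No paired analysis was possible because each list pools its libraries, and for the same reason no library could be left out in turn.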
